A study of Mus musculus with 3 samples.

Results

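The respiratory chain genes described here are the nuclear genes for the subunits of respiratory complexes I to V and for a few of their assembly factors. They were taken by symbol from the autosomal protein-coding genes of GENCODE M21: symbols starting with Nduf, Uqcr or Atp5, or with Cox followed by a digit from 4 to 8, together with Sdha, Sdhb, Sdhc, Sdhd and Cyc1. The rule took 92 gene models of 20807, under 91 symbols, because 2 gene models carry the name Atp5o. They are 36 subunit genes of complex I, 8 complex I assembly factors (Ndufaf), 4 genes of complex II, 9 of complex III, 14 of complex IV, 18 of complex V, and the 3 muscle and heart isoforms Cox6a2, Cox7a1 and Cox8b, which were kept apart. The X-linked genes Ndufa1, Ndufb11 and Cox7b lie outside the rule, and each had at least 1 promoter peak.

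The study mapped the folding of the genome in mouse brain cell types and collected accessible chromatin of dopaminergic neurons (DNs) from snATAC-seq, in which a transposase tags open chromatin inside isolated nuclei. The 2 libraries came from the midbrain ventral tegmental area (VTA) of male C57Bl/6Nl mice for which the labels name no treatment, and replicate 1 was 7 weeks and replicate 2 was 9 weeks of age. The deposited list pools both and gives 55326 peaks of 500 bp on mm10 by position alone, so no value below has a spread between replicates and no test was possible. Bulk ATAC-seq of the male mouse embryonic stem cell line 46C was not used here.

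DNs were a cluster of nuclei chosen by the authors on marker genes, not a population sorted by a DN marker. A promoter peak was listed for 8 of 8 fixed DN markers, which include genes of dopamine synthesis and transport such as Th and Slc6a3. That count is no independent check, since such markers chose the cluster. A promoter peak was listed for 0 of 3 microglia markers. It was listed for 1 of 4 oligodendrocyte markers, not for Mog, Olig2 or Sox10, for 1 of 3 astrocyte markers, which was Gfap, and for 1 of 3 markers of striated muscle and heart, which was Ckm. None of the microglia, astrocyte or muscle markers has a CpG-rich start, as defined further on, against 5 of 8 DN markers. Of all autosomal protein-coding genes 59% had a promoter peak, and of those without a CpG-rich start 18.7% did. Cx3cr1 of microglia and Aldh1l1 of astrocytes each had 5 peaks away from promoters in the gene body. These counts do not show how pure the cluster was.

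The respiratory chain passes electrons from NADH and succinate to oxygen in the inner mitochondrial membrane, and complex V, the ATP synthase, uses the proton gradient that this builds. A few hydrophobic core subunits are encoded by mitochondrial DNA and all others by nuclear genes scattered over the chromosomes, whose promoters are known for sites of NRF1, of the ETS factor GABPA and of YY1. DNs fire continuously and have large axons, and their dependence on complex I is known from complex I inhibitors that damage them.

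Between the start of a member and the start of a protein-coding gene on the other strand there were often fewer than 100 bases. In the pairs shown here a peak lay over both starts, which was not so in every pair. The sequences between such starts are shown because 1 listed peak there belongs to a pair of genes. They are from GRCm38 (mm10), hold no annotated exon, read 5′ to 3′ in the direction of the respiratory chain gene, and capitals mark the words for NRF1, NFY, SP/KLF and ETS factors that are described further on.
Ndufa11 and Vmac (chr17:56717686-56717766, plus strand): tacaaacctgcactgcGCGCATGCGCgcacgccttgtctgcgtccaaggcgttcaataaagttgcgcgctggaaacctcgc
Ndufb3 and Fam126b (chr1:58586324-58586383, plus strand): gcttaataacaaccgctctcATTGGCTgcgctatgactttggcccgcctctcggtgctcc
Ndufaf7 and Cebpz (chr17:78937067-78937135, plus strand): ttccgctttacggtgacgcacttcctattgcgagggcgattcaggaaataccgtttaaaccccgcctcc
Sdhd and Timm8b (chr9:50603813-50603909, minus strand): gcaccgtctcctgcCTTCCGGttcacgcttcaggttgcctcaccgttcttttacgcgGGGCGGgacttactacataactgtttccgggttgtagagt
Atp5c1 and Kin (chr2:10080511-10080592, minus strand): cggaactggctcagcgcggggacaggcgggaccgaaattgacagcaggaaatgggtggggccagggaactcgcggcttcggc

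The words found around the starts are shown for NRF1, the nuclear respiratory factor, in 7 of the 13 genes that hold one. Each line has up to 30 bases in the direction of the gene, with the word GCGCATGCG in capitals, on either strand, extended to GCGCATGCGC where the word is read on both strands at once.
Ndufaf4 (chr4:24897960-24897989, plus strand): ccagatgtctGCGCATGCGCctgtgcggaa
Ndufaf5 (chr2:140170652-140170681, plus strand): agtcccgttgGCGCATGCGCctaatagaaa
Uqcrc1 (chr9:108936668-108936697, plus strand): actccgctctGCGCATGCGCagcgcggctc
Cox6a1 (chr5:115349101-115349130, minus strand): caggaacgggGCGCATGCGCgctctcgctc
Cox6c (chr15:35938170-35938198, minus strand): atcgactcttGCGCATGCGtgctgctgga
Atp5k (chr5:108434430-108434459, minus strand): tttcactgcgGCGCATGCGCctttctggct
Atp5l (chr9:44920965-44920993, minus strand): aaaccaataaCGCATGCGCatttccccca

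The YY1 word AAGATGGC is shown for 6 genes, since its place relative to the first codon of the protein decides what its letters are. In the first 4 genes the ATG inside the capitals is the annotated start codon of the gene, and in Atp5j it is not an annotated start codon. In Ndufs8 the word lies on the other strand, so the capitals are its reverse complement, and its ATG is no annotated start codon either.
Ndufs6 (chr13:73328432-73328459, minus strand): ggtcaccggcAAGATGGCggcggtgctg
Sdhc (chr1:171150564-171150591, minus strand): gccggaactcAAGATGGCtgcgttcttg
Uqcrc1 (chr9:108936706-108936733, plus strand): cggaagttagAAGATGGCggcgtccgca
Atp5j2 (chr5:145191501-145191528, minus strand): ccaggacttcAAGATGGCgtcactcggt
Atp5j (chr16:84835047-84835074, minus strand): aagtgtaggaAAGATGGCggagtcttag
Ndufs8 (chr19:3913051-3913078, minus strand): gtacgctgtcGCCATCTTtgcagtattc

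The 100 bases before the outermost start are shown for broadly expressed subunits, for their tissue or condition isoforms, and for Ndufa6 and Atp5g1, because these differ in whether a peak was listed. Capitals mark each CpG, the base pair step that vertebrate genomes keep mainly at promoters of widely used genes.
Cox6a1 (chr5:115348982-115349081, minus strand): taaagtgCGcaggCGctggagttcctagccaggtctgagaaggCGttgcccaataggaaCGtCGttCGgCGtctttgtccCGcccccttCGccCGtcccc
Cox6a2 (chr7:128206388-128206487, minus strand): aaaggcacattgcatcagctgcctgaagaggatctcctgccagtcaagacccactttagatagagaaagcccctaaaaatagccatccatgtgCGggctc
Cox7a2 (chr9:79759879-79759978, minus strand): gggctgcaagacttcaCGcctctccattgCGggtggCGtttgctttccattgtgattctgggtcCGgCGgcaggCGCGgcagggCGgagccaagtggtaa
Cox7a1 (chr7:30184044-30184143, plus strand): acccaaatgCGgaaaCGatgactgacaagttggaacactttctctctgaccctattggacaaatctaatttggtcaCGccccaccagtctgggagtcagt
Cox8a (chr19:7217617-7217716, minus strand): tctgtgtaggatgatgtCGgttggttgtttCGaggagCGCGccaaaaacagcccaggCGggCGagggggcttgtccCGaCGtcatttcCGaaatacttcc
Cox8b (chr7:140900447-140900546, minus strand): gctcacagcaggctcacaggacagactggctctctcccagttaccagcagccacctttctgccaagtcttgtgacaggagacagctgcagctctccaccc
Cox4i2 (chr2:152754073-152754172, plus strand): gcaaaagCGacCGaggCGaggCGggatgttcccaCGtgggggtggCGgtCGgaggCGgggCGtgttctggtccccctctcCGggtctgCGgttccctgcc
Cox6b1 (chr7:30626152-30626251, minus strand): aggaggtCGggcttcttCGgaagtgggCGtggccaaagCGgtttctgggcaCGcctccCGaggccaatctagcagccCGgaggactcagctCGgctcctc
Cox6b2 (chr7:4753095-4753194, minus strand): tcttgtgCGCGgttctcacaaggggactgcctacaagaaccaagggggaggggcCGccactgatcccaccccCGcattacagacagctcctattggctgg
Ndufa4 (chr6:11907498-11907597, minus strand): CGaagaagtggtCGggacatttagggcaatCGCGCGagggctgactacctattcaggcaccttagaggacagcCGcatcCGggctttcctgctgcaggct
Ndufa4l2 (chr10:127514867-127514966, plus strand): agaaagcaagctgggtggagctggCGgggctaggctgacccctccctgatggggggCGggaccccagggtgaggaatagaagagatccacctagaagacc
Ndufa6 (chr15:82354323-82354422, minus strand): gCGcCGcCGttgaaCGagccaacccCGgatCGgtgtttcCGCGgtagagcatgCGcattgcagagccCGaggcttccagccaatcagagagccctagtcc
Atp5g1 (chr11:96075671-96075770, minus strand): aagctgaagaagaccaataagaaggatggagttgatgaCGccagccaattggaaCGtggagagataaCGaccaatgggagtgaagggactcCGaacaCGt
Cox6a1, Cox7a2 and Cox8a have 10, 8 and 9 CpGs in these bases, and the isoforms Cox6a2, Cox7a1 and Cox8b have 1, 3 and 0. Cox6b1 has 8 and Cox6b2 has 4, and Ndufa4 has 7 and Ndufa4l2 has 2. Cox4i2 goes the other way among isoforms without a promoter peak, with 11 CpGs, more than Cox6a1, although fewer than the 17 of Cox4i1, whose stretch overlaps exons and is not printed. Over the 500 bp around its start the observed/expected CpG ratio of Cox4i2 was 0.486. Ndufa6 and Atp5g1, which had no listed promoter peak, have 10 and 5.

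Nearly all respiratory chain genes had an accessible promoter in DNs. A promoter peak, with its centre within 1 kb of an annotated transcript start, was listed for 84 of 92 (91.3%, 95% exact binomial interval 83.6 to 96.2%, counting error only), against 59% of all autosomal protein-coding genes. The members' starts were rich in CpG more often, 81 of 92 (88%) against 57.9% of all genes, counting a start as CpG-rich when the 500 bp around it have at least 50% GC and an observed/expected CpG ratio of at least 0.6. Among genes with a CpG-rich start, 79 of 81 members (97.5%, interval 91.4 to 99.7%) had a promoter peak, against 88.2% of all such genes. Among genes without one, 5 of 11 members (45.5%, interval 16.7 to 76.6%) did, against 18.7%.

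**Figure D1:**
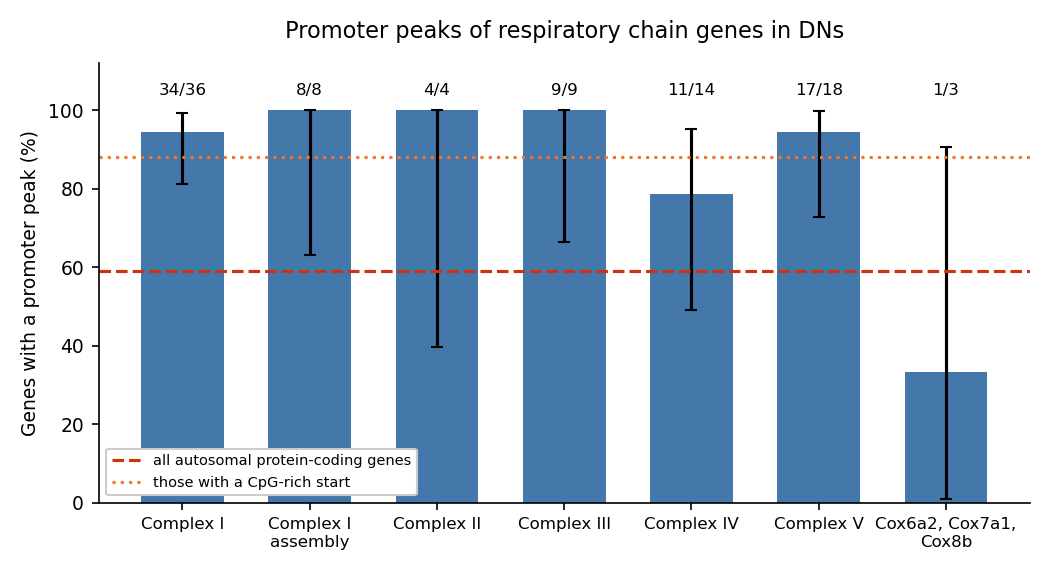
Share of genes with a promoter peak (y axis, %) for each complex and for the 3 muscle and heart isoforms, with the number of genes above each bar and 95% exact binomial intervals as lines. The dashed line is the 59% of all autosomal protein-coding genes and the dotted line the 88.2% of those with a CpG-rich start. Complexes I, II, III and V lie between 94.4% and 100%, complex IV at 78.6% and the isoforms at 33.3%.

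In complex I, which oxidises NADH, 34 of 36 subunit genes (94.4%, interval 81.3 to 99.3%) had a promoter peak. Genes of its core subunits had one close to a start. The nearest centre lay at -14 bp for Ndufv1, which binds NADH, at -12 bp for Ndufv2, at -22 bp for Ndufs1 and at -15 bp for Ndufs3, negative values being upstream. For the iron-sulphur subunit genes Ndufs7 and Ndufs8 it lay at -44 and -65 bp. All 8 Ndufaf genes, whose products help to build complex I, had a promoter peak too (interval 63.1 to 100%). The genes without one were the accessory subunit gene Ndufa6 and Ndufa4l2, a relative of Ndufa4 that is induced in low oxygen.

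All 4 genes of complex II, succinate dehydrogenase, had a promoter peak (interval 39.8 to 100%). Its nearest centre lay at -12 bp for Sdha, the flavoprotein, at 44 bp for Sdhb, the iron-sulphur subunit, and at -20 and -88 bp for the membrane anchors Sdhc and Sdhd. Complex III, which passes electrons to cytochrome c, had peaks at 9 of 9 genes (interval 66.4 to 100%). They lay at -20 bp for the cytochrome gene Cyc1, at -4 bp for the Rieske iron-sulphur gene Uqcrfs1, and at -4 and 10 bp for the core genes Uqcrc1 and Uqcrc2.

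In complex IV, cytochrome c oxidase, 11 of 14 genes (78.6%, interval 49.2 to 95.3%) had a promoter peak, and the genes without one were Cox4i2, Cox7b2 and Cox8c. Each of them is an isoform with restricted expression, Cox4i2 in lung and Cox7b2 and Cox8c in testis. In complex V, 17 of 18 gene models (94.4%, interval 72.7 to 99.9%) had one. The nearest centre lay at -3 bp for Atp5a1 and -22 bp for Atp5b, the subunits of the catalytic head, at -28 bp for Atp5c1 and 2 bp for Atp5d, subunits of the central stalk. Of the 3 genes for the membrane ring subunit, Atp5g2 and Atp5g3 had peaks at -52 and -12 bp, and Atp5g1 had none listed. The intervals of every complex and of the assembly factors hold the 88.2% of all genes with a CpG-rich start that had a promoter peak.

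Most of the isoforms with restricted expression had no promoter peak, unlike their broad partners. Of the 8 members that are muscle, lung, testis or low-oxygen isoforms, 2 had a promoter peak (25%, interval 3.19 to 65.1%), against 82 of the other 84 (97.6%, interval 91.7 to 99.7%). The highest observed/expected CpG ratio around their starts was 0.159 to 0.502, with a median of 0.417, so none was CpG-rich, while the median of all members was 0.818. The share of all autosomal protein-coding genes without a CpG-rich start that had a promoter peak, 18.7%, lies inside the interval of the 8 isoforms. The low share and the low CpG content went together in these 8 genes and cannot be told apart here.

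**Figure D2:**
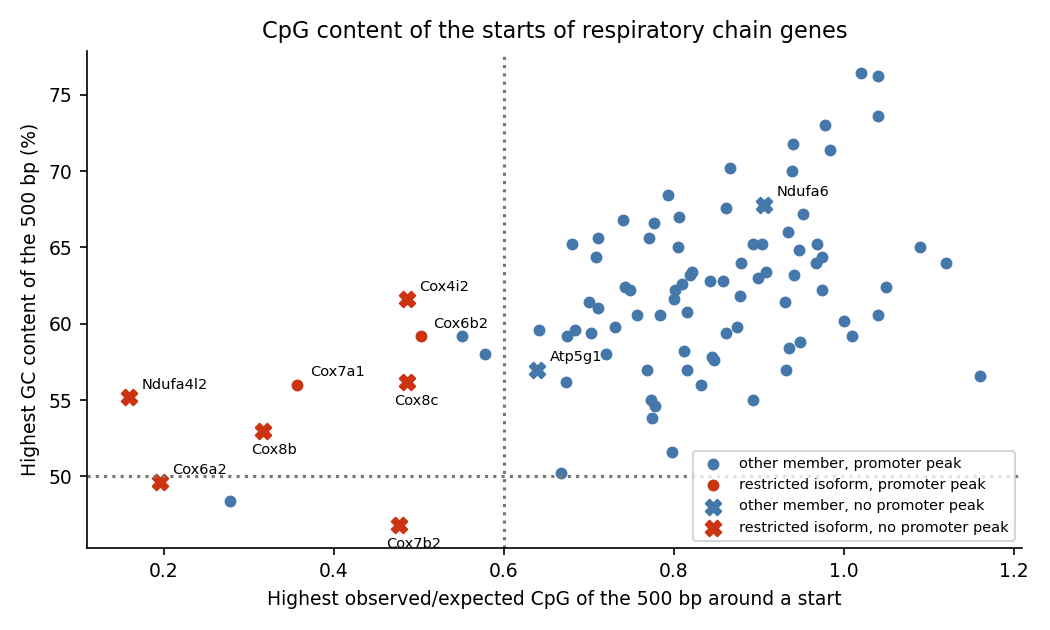
Highest GC content (y axis, %) against the highest observed/expected CpG ratio (x axis) of the 500 bp around a start, 1 point for each respiratory chain gene. Crosses are genes without a promoter peak, red symbols the 8 restricted isoforms, and dotted lines the limits of 50% and 0.6. The red symbols all lie left of 0.6, and Ndufa6 and Atp5g1 are the crosses to its right.

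Isoform pairs showed the difference gene by gene. The nearest peak centre lay 84 bp from a start for Cox6a1 and 2025 bp for Cox6a2, the muscle and heart form. It lay 33 bp from a start for Cox8a and 8234 bp for Cox8b. For Cox4i1 and Cox4i2 the distances were 24 and 14655 bp, and for Ndufa4 and Ndufa4l2 they were 266 and 1966 bp. Ndufa4 carries a complex I name, although its product is now counted as a subunit of complex IV.

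Cox7a1 and Cox6b2 were the isoforms with a promoter peak. Cox7a1, the muscle and heart form whose broad partner Cox7a2 had its nearest centre at 72 bp, had peaks with centres at 213 and 850 bp, both inside a gene of 1.94 kb. Cox6b2, the testis form of Cox6b1, had 1 peak at -33 bp, closer than the -47 bp of Cox6b1. The observed/expected CpG ratio at its start was 0.502. For the testis isoforms Cox7b2 and Cox8c, by contrast, the nearest centres lay 52.4 and 13.3 kb away. A listed peak gives no level of RNA, and neither gene's expression was measured in these data.

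**Figure D3:**
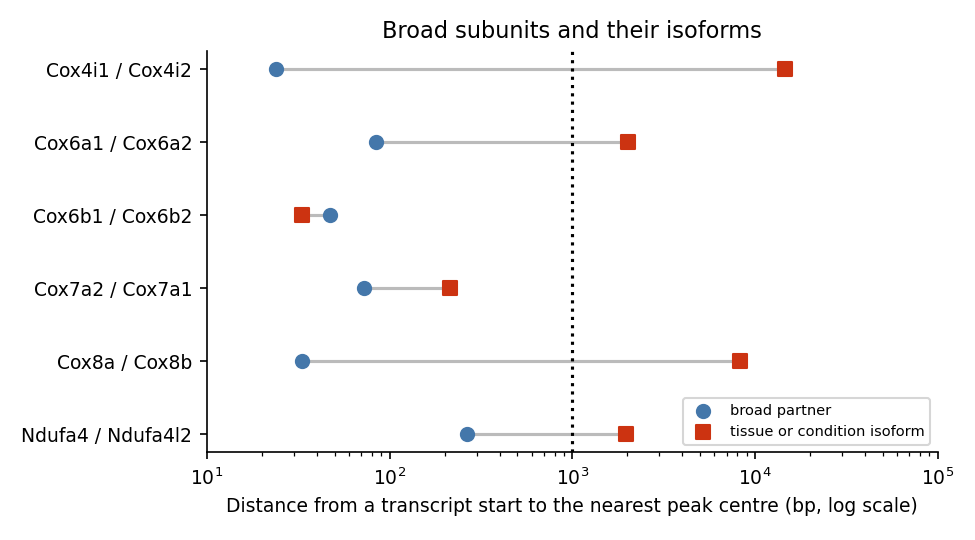
Distance from a transcript start to the nearest peak centre (x axis, bp, log scale) for 6 pairs of a broadly expressed subunit (blue circles) and its tissue or condition isoform (red squares). The dotted line is the 1-kb limit for a promoter peak. Cox4i2, Cox6a2, Cox8b and Ndufa4l2 lie beyond it at 1966 to 14655 bp, and Cox6b2 and Cox7a1 lie within it.

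Ndufa6 and Atp5g1 were the members with a CpG-rich start and no listed promoter peak, and for both the nearest peak was far away. For Ndufa6 it lay 43.9 kb away, in a stretch of 498.2 kb on chromosome 15 without any listed peak. That stretch also holds the CpG-rich starts of Pheta2 and Smdt1, the latter the gene of a subunit of the mitochondrial calcium uniporter. For Atp5g1 it lay 40.1 kb away, in a peak-free stretch of 244.1 kb with the CpG-rich starts of Hoxb9 and Ube2z. The list holds 2200 stretches of at least 200 kb between neighbouring peaks, 35 of which have at least 3 CpG-rich starts, and 1428 CpG-rich genes in all had no promoter peak.

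Repeated sequence was measured at these starts, since many of these genes have processed copies elsewhere in the genome. Of the 50-base words in the 2 kb around their starts, 97.5% occurred once in the genome for Ndufa6 and 100% for Atp5g1. Members with a promoter peak had 90.5 to 100%, with a median of 99.5%. Why these 2 genes and their neighbours had no listed peak was not tested.

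Member peaks were centred on the start. Over the 84 members with a promoter peak, the nearest centre had a median position of -20 bp (quartiles -46.2 and -4 bp, range -336 to 215 bp), against -28 bp (quartiles -72 and 4 bp) over all 12266 genes with one. It lay within 100 bp of a start in 74 of 84 members (88.1%, interval 79.2 to 94.1%), against 74.8% of all genes with a promoter peak. It lay upstream in 67 of 84 (79.8%), against 71.3%.

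The 3 members whose nearest peak lay farthest from a start were the other gene model named Atp5o at -336 bp, Uqcrh at -301 bp and Uqcr10 at -283 bp. That Atp5o model is a single transcript spanning 242.6 kb that starts inside Atp5o, the gene of the peripheral stalk, and shares 2 of its 3 promoter peaks with it. Uqcrh and Uqcr10, small subunits of complex III, each had their peak over a start of a neighbouring gene on the other strand, Lrrc41 at 198 bp and Zmat5 at 336 bp. Ndufa4 at -266 bp also had a partner of this kind, Phf14 at 312 bp.

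**Figure D4:**
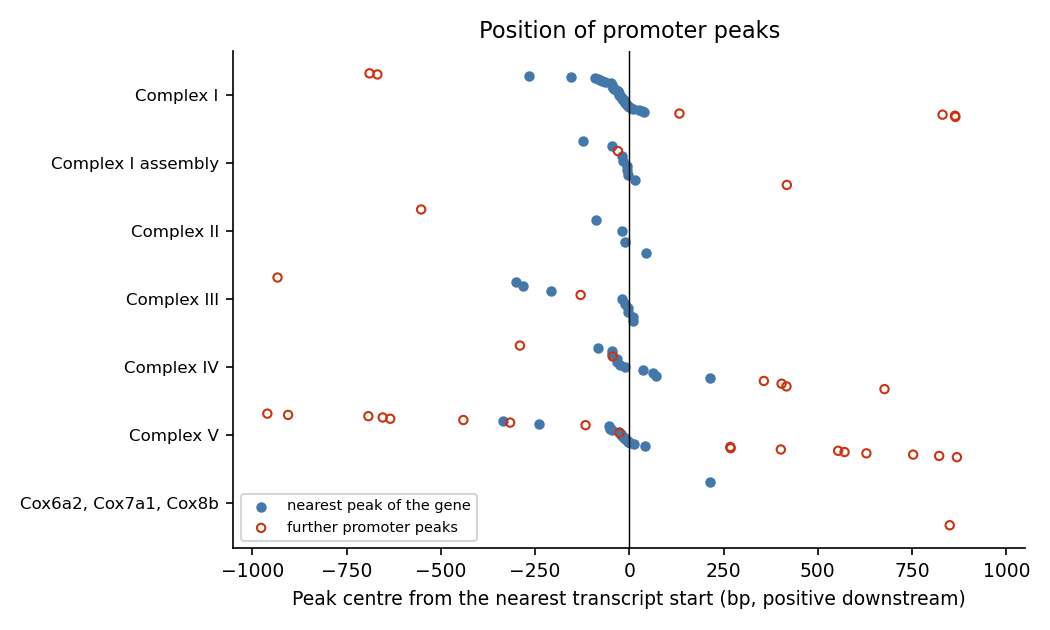
Distance of each promoter peak's centre from the nearest transcript start (x axis, bp, positive downstream), by complex. Filled points are the nearest peak of each gene and open circles the further promoter peaks. Filled points crowd around the start, with a median of -20 bp, and the open circles spread over the whole 1 kb on both sides, with more in complex V than in any other complex.

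Most members had a single promoter peak. Of 92 members, 60 (65.2%) had exactly 1 and 24 had 2 or more (26.1%, interval 17.5 to 36.3%), and the share of all genes with 2 or more was also 26.1%. Fewer of all genes had any promoter peak, 59% against 91.3% of members. Among genes with a promoter peak, 24 of 84 members had 2 or more, against 5431 of 12266 of all. The mean number was 1.43 in these members and 1.71 over all such genes. Atp5d, the delta subunit of the central stalk, had 5, at -440, -26, 2, 629 and 753 bp, each from the closest of its annotated starts. Cox4i1 and Atp5o had 4 each. Ndufa13, Atp5b, Atp5j and Atp5l had 3 each, as did the other Atp5o model. The members with 2 were Ndufa11, Ndufb2, Ndufb8, Ndufs8, Ndufaf3, Ndufaf8, Sdhb, Cyc1, Uqcrh, Cox5a, Cox7a2l, Cox8a, Cox7a1, Atp5f1, Atp5g2 and Atp5g3. Gene models of complex V made up 9 of these 24, and 18 of the 92 members. The 9 include the other Atp5o model, which shares 2 of its 3 promoter peaks with Atp5o.

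Many members had a neighbour that started close by on the other strand. A protein-coding gene started on the other strand within 1 kb upstream of 32 of 92 members (34.8%, interval 25.1 to 45.4%), against 11.3% of all autosomal protein-coding genes. Among genes with a promoter peak, the shares were 32 of 84 members (38.1%, interval 27.7 to 49.3%) and 17.6% of all. All 32 had a promoter peak, as did 91.7% of all genes with such a neighbour and 52 of the 60 members without one (86.7%). In 31 of the 32 pairs the member's nearest peak was also a promoter peak of the neighbour. The 1-kb limit nearly fixes this count for starts so close, and it was not made for all such pairs. The distance between starts had a median of 89 bp in members and 105 bp over all genes with such a neighbour.

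Such pairs were found in every complex. They made up 13 of 36 subunit genes of complex I, 4 of 8 assembly factors, 3 of 4 genes of complex II, 4 of 9 of complex III, 7 of 18 of complex V and 1 of 14 of complex IV, which was Cox4i1 with Emc8. Sdhd was 98 bp from Timm8b, a chaperone of mitochondrial import, and Ndufs6 was 51 bp from Mrpl36, a protein of the mitochondrial ribosome. Ndufs1 was 3 bp from the elongation factor gene Eef1b2, and Ndufa7 was 10 bp from Rps28, a protein of the cytosolic ribosome.

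Atp5j, a subunit of the peripheral stalk, started 93 bp from Gabpa, which encodes the DNA-binding subunit of an ETS factor known to act on respiratory chain genes. The same peak, at -21 bp from Atp5j, lay over both. Other neighbours included Vmac at 82 bp for Ndufa11, Ik at 99 bp for Ndufa2, Haus1 at 70 bp for Atp5a1, Kin at 83 bp for Atp5c1 and Cbarp at 16 bp for Atp5d. In complex II, Sdha was 29 bp from Ccdc127. A shared peak does not say which of the genes was in use, and a peak between such starts counted for both.

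The 118 distinct promoter peaks of the members were about as rich in GC as others. Their GC content had a median of 59.3% (range 38.8 to 75.8%) against 61% over all 19062 promoter peaks, and their observed/expected CpG ratio a median of 0.759 against 0.716. The highest GC content was that of the Cox4i1 peak, at 75.8%.

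Exact words of known factors were searched on both strands of these peaks. The NRF1 word GCGCATGCG was in 13 of 118 member peaks (11%, interval 6 to 18.1%), against 2.75% of all promoter peaks and 2.96% of the promoter peaks of genes with a CpG-rich start. The genes were Ndufa11, Ndufa13, Ndufa8, Ndufaf4, Ndufaf5, Uqcr11, Uqcrc1, Cox6a1, Cox6c, Atp5g2, Atp5j, Atp5k and Atp5l, so the word was found in complexes I, III, IV and V and in 0 of 5 peaks of complex II. It lay within 100 bp of a start in 8 of these 13 genes, from -692 bp in Atp5j and -777 bp in Ndufa13 to 63 bp in Ndufa8. In 9 of the 13 it was read on both strands, as the lines for Ndufaf4 and Uqcrc1 show.

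The YY1 word AAGATGGC was in 22 of 118 member peaks (18.6%, interval 12.1 to 26.9%), against 5.17% of all promoter peaks. It was at 23 places in 22 genes, 17 of them within 100 bp of a start and 16 in the orientation of the gene, with a median position of 1 bp. In 15 of these 23 places (65.2%) the ATG inside the word was an annotated start codon, against 318 of 1018 (31.2%) over all promoter peaks. Of the 16 places in the gene's orientation, 13 were such start codons, among them those of Ndufs4, Ndufs6, Ndufs7, Ndufb8, Sdhc and Uqcrc1. Without the words on start codons, a measure chosen after the values were seen, 8 of 118 member peaks (6.78%, interval 2.97 to 12.9%) held the word, against 3.54% of all promoter peaks. The letters of the word at a start codon are also those of the codons, and which of these readings applies was not tested.

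Whether the shares of several other words differed from all promoter peaks depended on the part of the peak or the peaks compared. The ETS word CCGGAAG, read by GABPA, was in 26 peaks (22%, interval 14.9 to 30.6%) against 15.6%, which lies inside the interval. In the central 200 bp of the peaks it was in 18.6% of member peaks (interval 12.1 to 26.9%) against 10.5% of all, which lies outside. In the nearest peaks alone it was in 28.6% (interval 19.2 to 39.5%) against 21.4%, which lies inside. The CREB word TGACGTCA was in 8 (6.78%, interval 2.97 to 12.9%) against 2.8%, in Ndufa10, Ndufa11, Ndufb2, Sdhb, Uqcrfs1, Cox4i1 and Atp5d. In the central 200 bp it was in 4.24% (interval 1.39 to 9.61%) against 2.33%, and in the nearest peaks alone in 7.14% (interval 2.67 to 14.9%) against 3.99%, both inside the interval. The word TCAAGGTCA of ESRRA, a nuclear receptor that acts with PGC-1 coactivators, was in 4 (3.39%, interval 0.931 to 8.45%) against 0.724%, in Ndufa2, Sdhd, Atp5g3 and Atp5j. The ZNF143 and THAP11 word CTACAATTC was in 3 (2.54%, interval 0.527 to 7.25%) against 0.577%, which lies inside the interval. The NFY word AGCCAAT was in 13 (11%) against 9.57% and the TATA box word TATAAA in 11 (9.32%) against 8.75%, both inside the interval of the members' share. GGGCGG of SP/KLF factors was the word that most member peaks held, 67 of 118 (56.8%, interval 47.3 to 65.9%), against 64.3% of all promoter peaks and 67% of those of genes with a CpG-rich start, the latter above the interval. In the nearest peaks alone it was in 64.3% (interval 53.1 to 74.4%) against 76.3%. A word is a match of letters in a listed peak, and binding was not measured.

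**Figure D5:**
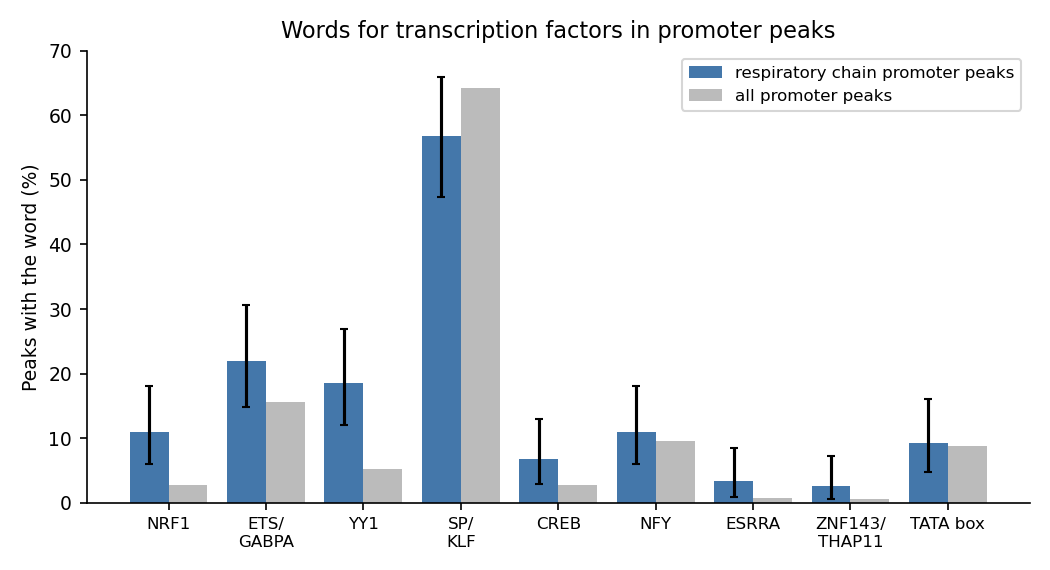
Share of promoter peaks with each word (y axis, %) for the 118 peaks of respiratory chain genes (blue, with 95% exact binomial intervals) and for all 19062 promoter peaks (grey). The blue bars exceed the grey ones beyond their interval for NRF1 (11% and 2.75%), YY1 (18.6% and 5.17%), CREB (6.78% and 2.8%, narrowly) and ESRRA (3.39% and 0.724%), and SP/KLF lies at 56.8% against 64.3%, inside its interval for this comparison.

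Away from promoters, peaks near the members were about as common as near other genes. A peak that was no promoter peak of any protein-coding gene lay in or within 10 kb of 47 of 92 members (51.1%, interval 40.4 to 61.7%), against 49.8% of all genes. Within the gene body itself, 20 members (21.7%, interval 13.8 to 31.6%) had one, against 32.4%, and members were shorter, with a median length of 7.57 kb against 17.6 kb. The most such peaks were at the other Atp5o model, with 16, at Atp5d, with 11, and at Ndufa4l2, with 8. Those at Ndufa4l2 lay beside a gene without a promoter peak of its own, all outside the gene body.

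The lists of related genes are set beside the 59% of all genes and the 88.2% of genes with a CpG-rich start that had a promoter peak, since most of their genes have CpG-rich starts. A promoter peak was listed for 77 of 78 genes of the mitochondrial ribosome (98.7%, interval 93.1 to 100%), all but Mrpl43. It was listed for 84 of 95 genes whose symbols start as those of cytosolic ribosomal proteins do (88.4%, interval 80.2 to 94.1%). That match on Rpl, Rps or Rplp and a digit also took genes of other proteins, such as Rps19bp1. Those without include Rps19bp1 and copies named as pseudogenes. A promoter peak was listed for 51 of 52 electron carriers and assembly factors outside the symbol rule (98.1%, interval 89.7 to 100%), the exception being Cyct, the testis form of cytochrome c. All 12 genes of the citric acid cycle had one (interval 73.5 to 100%), and their starts are all CpG-rich. All 12 regulators had one, with the same interval, and 11 of them have CpG-rich starts. The 88.2% lies inside the intervals of the citric acid cycle and regulator lists and of the list by cytosolic ribosomal symbols. Among the regulators, the nearest centre lay for Nrf1 at 30 bp, Gabpa at -98 bp, Yy1 at -116 bp, Ppargc1a, the PGC-1 coactivator gene, at -240 bp, and Tfam, the factor that packs mitochondrial DNA, at 52 bp.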

How the data were processed

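The processed file was 1 list of peak positions, deposited by the authors, pooled over both VTA libraries. Per the labels and methods, reads were mapped to mm10 with Cell Ranger, sorted nuclei were gated against doublets, remaining doublets and low-quality nuclei were removed and the rest clustered with ArchR, and peaks were called on the DN cluster. The deposited positions carry no count, score, height or p-value, so the depth behind a peak is unknown and a promoter without a peak is one where none was listed. A filter on peaks by the share of nuclei is described, and whether it applies to this list is not given in the sources used here. Starts were read as counted from 0 and are printed counted from 1.

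Transcript starts were those of GENCODE M21, and bases were read from GRCm38. A peak was assigned to each gene with a start within 1 kb of its centre. Words were searched as exact matches on both strands, and overlapping matches counted as 1 place. Shares have 95% exact binomial intervals over genes or peaks, which share 1 pooled list and are not replicates. Named were members without or with 2 or more promoter peaks, complex II, core subunits, isoforms and their partners, the farthest peaks, genes with an NRF1 word, the most peaks away from promoters and neighbours on the other strand. Members, lists and words were chosen with earlier results of these data known. Values of some single genes are not reported here. The steps were tested on simulated data. Tables were made in Python 3.11.15 (pandas 2.3.3, numpy 2.4.6), intervals with scipy 1.17.1, and plots with matplotlib 3.10.9.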

Additional observations from a re-analysis of the deposited data

How the results depend on the processing

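Of 88 alternatives, 77 stayed within the interval of the reported share and 11 moved out of it. Many are shares of single complexes, whose wide intervals are hard to leave, so the count is no measure of stability. Complex III stayed within its interval at 7 of 9 genes with a peak over a start, against 9 of 9. The members' share with a promoter peak ranged from 87% to 92.4%, where a distance of 2 kb added Ndufa4l2, requiring a peak over a start lost the other Atp5o model, Ndufa4, Uqcr10 and Uqcrh, and using the outermost start alone gave 89.1%, with Cox7a2l among those lost. Without assembly factors and Atp5s it was 90.4%. The share of all genes was 57.2% at 500 bp, 60.6% at 2 kb, 53.5% for a peak over a start, 57.5% with protein-coding transcripts, 54.2% with the outermost start, 57.2% with the basic annotation and 88.2% for CpG-rich starts. In the central 200 bp of peaks the SP/KLF word was in 39.8% of member peaks and 48.6% of all promoter peaks, and the TATA box word in 3.39% and 2.79%, since fewer bases were searched. The YY1 word was in 6.78% of member peaks without words on start codons. Peaks away from promoters were at 21.7% of members in the gene body alone. The basic annotation, leaving out the other Atp5o model (91.2%) and leaving out start codons were chosen after seeing the data. No paired analysis was possible because the list pools both libraries and holds no value for either, and leaving out a replicate was not run for the same reason. Weakly accessible promoters cannot be judged from a list without depth.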
